A study of Mus musculus with 8 samples.

Results

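In mouse pancreatic islets, 34 genes had higher RNA levels in cells labelled as transdifferentiated from alpha cells than in either alpha or beta cells. They were chosen by their values out of the 46955 genes of the deposited table. Both transdifferentiated libraries had to hold at least 5 RPKM (reads scaled by gene length and library size), and each had to reach at least 1.5 times the highest of the 6 alpha and beta libraries. In all, 50 genes met these values, and 16 of them were left out by name: Tspan8, Mlxipl, and entries for predicted genes, small nucleolar RNAs and microRNAs. Because the values of the transdifferentiated cells chose the 34 genes, their excess over alpha and beta cells is given as a description, with no test. Alpha and beta cells were compared with each other, and male with female pools, in a fit of all 8 libraries. Both tests thus took part of their spread from the transdifferentiated libraries. The sex test also drew on the difference between the transdifferentiated pools, whose values chose the genes.

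The transdifferentiated cells (2 libraries, 1 male and 1 female pool) were sorted for 2 reporters at once. One was the nuclear red reporter of the Ins1-H2b-mCherry allele, which follows the insulin 1 gene, and the other was YFP from a floxed allele, switched on by Gcg-cre, a recombinase under control of the glucagon gene. Alpha cells (3 libraries, 2 male and 1 female) were sorted for YFP, and beta cells (3 libraries, 1 male and 2 female) for mCherry, per the labels. All mice were adult, the labels name no treatment, and every library came from pooled islets of several animals of 1 sex, cultured overnight before dissociation. The series text describes animals with all 3 alleles and, in a further passage, females with 2 of them, without saying which libraries that passage covers. Membership of the transdifferentiated group thus rests on the activity of the Ins1 and Gcg promoters alone. Titles of 4 of the 6 alpha and beta libraries (replicates 2 and 3 of each) carry an unexplained letter b, and some of them share a number with a library without it. If such a pair came from 1 pool of animals, p-values in part measure technical spread.

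Adult alpha cells make glucagon and beta cells make insulin, and both arise from a common endocrine progenitor in the embryo. Lineage tracing in mice has shown that a small number of alpha cells can switch on the insulin gene and take on much of the beta cell programme. The members do not share 1 pathway: they include Plekhg6, which activates small GTPases of the cytoskeleton by exchanging their nucleotide, and Apof, a plasma apolipoprotein that inhibits lipid transfer between lipoproteins.

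The labels matched the identity genes. Ins2, the major mouse insulin gene, stood at 87124 and 94199 RPKM in transdifferentiated libraries, against 820 to 1088 RPKM in alpha and 115974 to 157458 RPKM in beta libraries. Gcg, the glucagon gene, stood at 19374 and 19104 RPKM in transdifferentiated libraries, against 170137 to 196491 RPKM in alpha and 478 to 1773 RPKM in beta libraries. Both hormones of the transdifferentiated cells therefore lay between the alpha and beta levels, unlike the 34 genes. Depth differed between the groups: recovered reads numbered 1244156 and 2167199 in transdifferentiated libraries, against 12911324 to 14093311 in alpha and 14336480 to 21394674 in beta libraries. A single read of a gene 2 kb long therefore added 0.402 and 0.231 RPKM in transdifferentiated cells, but 0.0234 to 0.0387 RPKM in alpha and beta cells.

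Promoter sequences were at hand for 15 of the 34 genes (17 promoters, matched by symbol to RefSeq on GRCm38.p6), each spanning 250 bases before to 50 bases after the start of the gene. Those of 6 genes are shown here in full. Clstn3, Csf2ra and Ptpru are the members whose window held the cyclic AMP response element TGACGTCA, S100a6 and 2410021H03Rik differed most between alpha and beta cells, and Id2 was the most abundant member. Capitals mark matches, on either strand, to the motifs named below. The windows lie at chr6:124464735-124465034 (Clstn3, minus strand, the more upstream of its 2 promoters), chr19:61228369-61228668 (Csf2ra, minus strand), chr4:131838229-131838528 (Ptpru, minus strand), chr3:90612644-90612943 (S100a6, plus strand), chr17:69277157-69277456 (2410021H03Rik, minus strand) and chr12:25096043-25096342 (Id2, minus strand).
Clstn3: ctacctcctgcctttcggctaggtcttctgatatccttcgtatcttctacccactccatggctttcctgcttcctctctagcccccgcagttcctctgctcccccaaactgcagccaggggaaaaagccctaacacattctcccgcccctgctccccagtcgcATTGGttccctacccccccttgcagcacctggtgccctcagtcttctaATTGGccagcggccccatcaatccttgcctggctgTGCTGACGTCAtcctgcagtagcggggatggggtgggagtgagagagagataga
Csf2ra: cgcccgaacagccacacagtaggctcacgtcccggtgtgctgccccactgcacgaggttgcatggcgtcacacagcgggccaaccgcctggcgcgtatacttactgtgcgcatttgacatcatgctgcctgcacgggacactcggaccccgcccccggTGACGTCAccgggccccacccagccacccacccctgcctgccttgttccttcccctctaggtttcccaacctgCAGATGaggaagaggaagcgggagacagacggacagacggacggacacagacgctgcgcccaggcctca
Ptpru: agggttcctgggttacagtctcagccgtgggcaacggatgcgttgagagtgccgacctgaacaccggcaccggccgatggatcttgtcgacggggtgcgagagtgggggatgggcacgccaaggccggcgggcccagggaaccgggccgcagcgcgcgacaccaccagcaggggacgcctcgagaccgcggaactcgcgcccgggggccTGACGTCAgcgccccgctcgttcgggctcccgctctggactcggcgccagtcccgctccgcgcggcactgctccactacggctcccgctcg
S100a6: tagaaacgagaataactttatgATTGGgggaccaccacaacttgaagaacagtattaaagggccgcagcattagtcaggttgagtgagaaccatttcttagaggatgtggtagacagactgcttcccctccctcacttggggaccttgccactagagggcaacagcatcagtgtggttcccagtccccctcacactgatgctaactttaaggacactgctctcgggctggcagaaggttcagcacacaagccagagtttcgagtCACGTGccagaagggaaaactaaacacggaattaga
2410021H03Rik: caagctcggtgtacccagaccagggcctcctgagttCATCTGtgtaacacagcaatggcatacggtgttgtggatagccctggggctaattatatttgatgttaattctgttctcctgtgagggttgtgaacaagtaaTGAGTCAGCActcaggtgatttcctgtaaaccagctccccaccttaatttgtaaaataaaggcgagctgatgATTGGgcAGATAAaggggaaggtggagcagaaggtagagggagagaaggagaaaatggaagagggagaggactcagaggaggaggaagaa
Id2: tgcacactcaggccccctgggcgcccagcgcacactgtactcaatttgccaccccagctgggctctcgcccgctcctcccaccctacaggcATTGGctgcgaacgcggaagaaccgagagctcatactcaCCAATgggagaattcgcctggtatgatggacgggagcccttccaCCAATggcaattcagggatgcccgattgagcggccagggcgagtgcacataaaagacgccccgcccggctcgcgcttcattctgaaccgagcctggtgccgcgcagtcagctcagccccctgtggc
The full cyclic AMP response element, which CREB-family factors bind, stood in 3 of the 17 promoters, against 1.79% of all 32851 promoters of the same length in the table. CCAAT boxes (CCAAT) stood in 9 of the 17, against 37.4% of all promoters, and Id2 held 3 of them. The E-box CACGTG, a core of carbohydrate response elements, stood in S100a6 alone (7.15% of all promoters). CAGATG, an E-box of NeuroD and neurogenin factors, stood in 4 members' promoters (Csf2ra, 2410021H03Rik, Ankrd24 and Fdxr; 17.2% of all). The motif AGATAA of GATA-binding factors stood in 2410021H03Rik and Eno3 (11.2%), and the AP-1 motif TGANTCA in 2410021H03Rik and Aox1 (7.81%). The MAF core TGCTGAC stood in Clstn3, where it overlapped the response element, and in 2410021H03Rik, where it overlapped the AP-1 motif (4.67% of all). No match to the TATA box TATAAA (13.6% of all promoters), the FOXA motif TGTTTAC (3.65%), the HNF4 motif CAAAGTCCA (0.475%) or the RFX motif GTTGCCA (4.38%) lay in these windows. All motifs were searched on both strands, and a match describes these letters only.

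The excess of the 34 genes was mostly moderate. The ratio of the lower transdifferentiated library to the highest alpha or beta library had a median of 1.75 and ran from 1.52 to 3.78, with 26 genes under 2, 7 genes between 2 and 3 and 1 gene above 3. A further 104 genes lay just below the threshold, with the lower transdifferentiated library at 125% or more of the highest alpha or beta library but under the limit. Against the group means, the median member stood at 2.85 times the alpha mean and 2.65 times the beta mean. The opposite pattern, all 6 alpha and beta libraries at 5 RPKM or more and at least 1.5 times both transdifferentiated libraries, was met by 1 gene. That count depends on the deposited scaling, under which the median log2 fold change of all genes tested was 0.17 against alpha and 0.09 against beta cells. No count of the opposite pattern under another scaling is given. Used on alpha and on beta cells, the same rule found 187 genes in which all 3 alpha libraries stood above the other 5, and 66 genes in which all 3 beta libraries did.

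**Figure D1:**
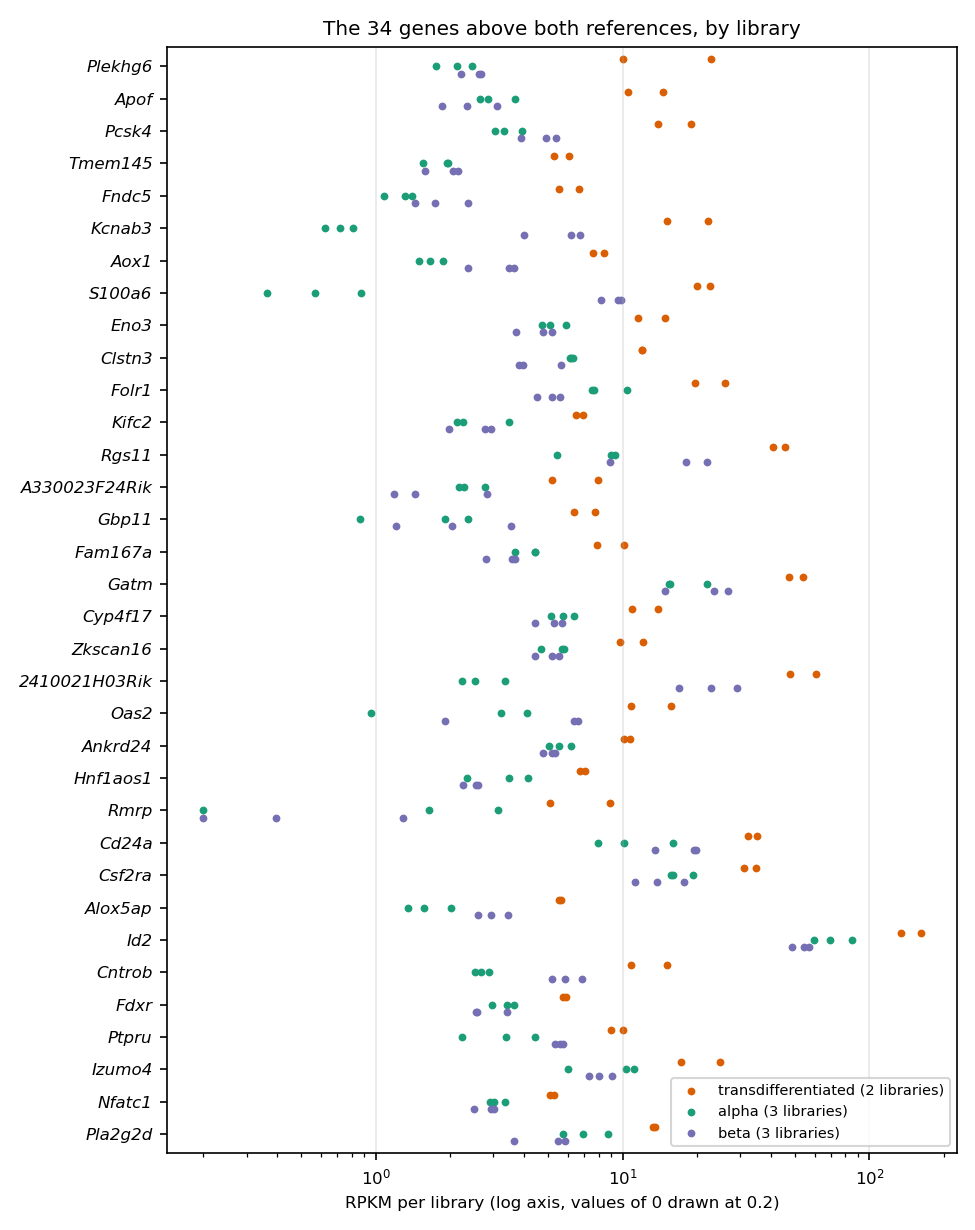
RPKM of the 34 genes (rows, ordered by their ratio) in each of the 8 libraries on a log axis, with transdifferentiated cells in orange, alpha cells in green and beta cells in violet. Each point is 1 library, values of 0 are drawn at 0.2, and every orange point lies right of all points of its row in the other colours, which the choice of genes required.

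Read support was uneven. In the transdifferentiated libraries the members held 3 to 371 reads, with medians of 55 and 76, against a median of 198.5 reads per gene and library in alpha and beta cells. In Hnf1aos1, Rmrp, Alox5ap and Fdxr the exact 95% Poisson interval, which covers counting error only, reached down to the highest alpha or beta value in at least 1 transdifferentiated library. Only in 7 members did the intervals of both libraries stay above 1.5 times that value, the limit of the rule. These intervals come from the same reads that chose the genes, so they describe precision and do not test the excess. Fewer than 50 reads in both libraries stood behind 10 members and more than 100 reads behind 5. Together the members took 0.184% and 0.165% of the reads of the 2 transdifferentiated libraries.

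**Figure D2:**
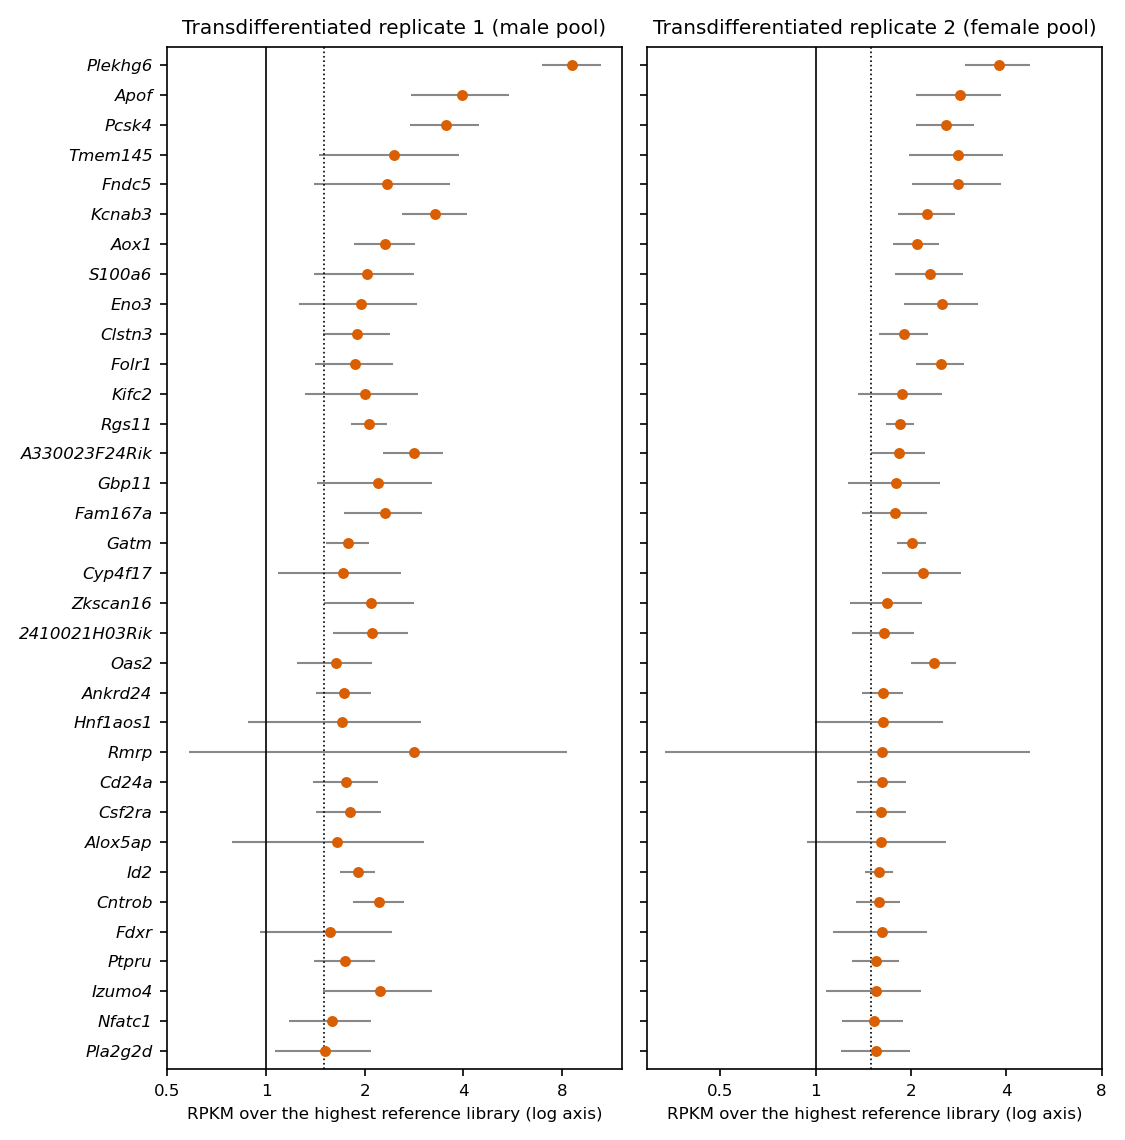
RPKM of each transdifferentiated library divided by the highest alpha or beta library, for the 34 genes on a log axis, with replicate 1 on the left and replicate 2 on the right. Bars are exact 95% Poisson intervals of the recovered reads; the solid line marks a ratio of 1, the dotted line the threshold of 1.5, and Rmrp, on 3 reads in each library, has the widest interval.

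Among regulators of G proteins, Plekhg6 had the highest ratio of all members and Rgs11 one of the highest levels. Plekhg6 stood at 22.9 and 10.1 RPKM in transdifferentiated libraries, at 1.76, 2.14 and 2.45 RPKM in alpha libraries and at 2.62, 2.66 and 2.22 RPKM in beta libraries. These levels rested on 94 and 72 reads in transdifferentiated libraries, against 75 to 188 reads in alpha and beta libraries. Alpha and beta cells overlapped, and the male transdifferentiated pool was 2.27 times the female one, the widest gap of the 34 genes. Plekhg6 occupies chr6:125362660-125380793 on the minus strand (GENCODE M21, GRCm38). Rgs11, which speeds up GTP hydrolysis by inhibitory G protein alpha subunits, stood at 45.5 and 40.7 RPKM in transdifferentiated libraries, at 5.45, 8.96 and 9.34 RPKM in alpha libraries and at 8.91, 18.1 and 22.02 RPKM in beta libraries. Beside Id2 it had the most reads of all members, 238 and 371 in transdifferentiated libraries, and beta replicate 1 lay within the range of the alpha libraries. Its close relative Rgs9 stood just outside the selection at a ratio of 1.49, with 18.4 and 15.4 RPKM in transdifferentiated libraries, 5.56, 6.67 and 9.06 RPKM in alpha libraries and 7.34, 10.4 and 7.93 RPKM in beta libraries. Rgs7 was level across the groups, at 5.47 and 6.82 RPKM in transdifferentiated libraries, 4.70 to 6.10 RPKM in alpha and 5.47 to 5.72 RPKM in beta libraries.

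Plekhg6 was the only one of 6 PLEKHG genes above every alpha and beta library. In the limma fit of all genes tested, where 29.9% of genes differed between transdifferentiated and alpha cells and 12% between transdifferentiated and beta cells, Plekhg5 and Plekhg3 passed neither comparison. Among 18 tested genes of related exchange factors outside that family, 3 were higher than in alpha cells: Net1 (log2 fold change 1.66, SE 0.20, limma adjusted p = 0.00122), Arhgef16 (0.39) and Arhgef17 (0.48). Against beta cells 2 were higher, Arhgef25 (log2 fold change 1.22, SE 0.17, limma adjusted p = 0.00927) and Arhgef1 (0.73). None was lower in either comparison. Over all genes tested, 23.2% were higher and 6.67% lower than in alpha cells, and 9.1% were higher and 2.9% lower than in beta cells.

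At the cell surface, 6 members encode receptors, adhesion proteins or a channel subunit, with ratios of 1.55 to 2.24. Kcnab3, a beta subunit of voltage-gated potassium channels, stood at 22.2 and 15.1 RPKM in transdifferentiated libraries, at 0.811, 0.624 and 0.718 RPKM in alpha libraries and at 6.21, 3.98 and 6.74 RPKM in beta libraries. All 3 groups were apart, with alpha cells lowest. The other 2 genes of its family were near the floor of detection, Kcnab1 at 0 and 0.0537 RPKM and Kcnab2 at 0.432 and 0.579 RPKM in transdifferentiated libraries, against at most 0.206 and 0.764 RPKM in alpha and beta libraries. Kcnab3 starts 2483 bases from Cntrob, another member, on the opposite strand of chromosome 11, with Trappc1 between them.

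Folr1, the GPI-anchored folate receptor alpha, stood at 19.6 and 25.9 RPKM in transdifferentiated libraries, at 10.5, 7.55 and 7.66 RPKM in alpha libraries and at 5.58, 4.52 and 5.16 RPKM in beta libraries. Csf2ra, the ligand-binding chain of the GM-CSF receptor, stood at 34.8 and 31.2 RPKM in transdifferentiated libraries, at 15.7, 15.99 and 19.3 RPKM in alpha libraries and at 11.3, 17.8 and 13.8 RPKM in beta libraries. The Csf2ra levels of alpha and beta cells overlapped, while those of Folr1 did not, with beta cells lowest. The signalling chain that pairs with Csf2ra was scarce: Csf2rb stood at 0 and 0.678 RPKM in transdifferentiated libraries, at no more than 0.0325 RPKM in alpha and at 0.585 to 0.922 RPKM in beta libraries. Cd24a, a small GPI-anchored sialoglycoprotein, stood at 35.0 and 32.3 RPKM in transdifferentiated libraries, at 15.97, 7.93 and 10.1 RPKM in alpha libraries and at 19.9, 19.4 and 13.5 RPKM in beta libraries. Alpha and beta libraries overlapped for Cd24a as well.

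Clstn3, a calsyntenin that acts in synapse adhesion, stood at 12.0 RPKM in both transdifferentiated libraries, at 6.19, 6.31 and 6.11 RPKM in alpha libraries and at 5.62, 3.82 and 3.96 RPKM in beta libraries. Its relatives lay between or at the levels of alpha and beta cells: Clstn1 at 45.7 and 43.5 RPKM in transdifferentiated libraries was level with the beta libraries (35.7 to 43.8 RPKM; alpha 14.9 to 17.3 RPKM). Ptpru, a receptor-type tyrosine phosphatase, stood at 10.1 and 8.95 RPKM in transdifferentiated libraries, at 4.42, 3.36 and 2.23 RPKM in alpha libraries and at 5.33, 5.76 and 5.57 RPKM in beta libraries. All alpha libraries were below all beta libraries.

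Secreted proteins and their processing made up 5 members, with ratios of 1.52 to 2.86. Apof stood at 14.6 and 10.5 RPKM in transdifferentiated libraries, at 2.65, 2.86 and 3.68 RPKM in alpha libraries and at 1.86, 2.35 and 3.11 RPKM in beta libraries. Only 35 and 44 reads stood behind the transdifferentiated values, against 66 to 100 in the other libraries, and alpha and beta cells overlapped. Apof occupies chr10:128268671-128270153 on the plus strand (GENCODE M21, GRCm38). Of 17 apolipoprotein genes, 8 were listed at 0 in both transdifferentiated libraries and 6 were tested. Apof is among those tested, but its excess chose it, so its own result is not counted. None of the others was higher than in alpha or beta cells. Apod (log2 fold change -2.57, SE 0.20, limma adjusted p = 0.000229) and Apoa2 (-1.44) were lower than in alpha cells. Apoe (-1.93, SE 0.42, limma adjusted p = 0.0312) was lower than in beta cells. Of all genes tested, 6.67% were lower than in alpha cells and 2.9% lower than in beta cells.

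Pcsk4, a proprotein convertase best known from male germ cells, stood at 19.0 and 13.9 RPKM in transdifferentiated libraries, at 3.04, 3.32 and 3.91 RPKM in alpha libraries and at 3.90, 5.39 and 4.88 RPKM in beta libraries. The convertases that process islet hormones did not share this pattern. Pcsk1, which cleaves proinsulin, stood at 113 and 102 RPKM in transdifferentiated libraries, between 1.86 to 2.28 RPKM in alpha and 171 to 221 RPKM in beta libraries. Pcsk2, which frees glucagon from its precursor, stood at 423 and 421 RPKM in transdifferentiated libraries, against 610 to 741 RPKM in alpha and 352 to 449 RPKM in beta libraries. Fndc5, the precursor of the secreted peptide irisin, stood at 5.53 and 6.68 RPKM in transdifferentiated libraries, at 1.40, 1.32 and 1.08 RPKM in alpha libraries and at 2.37, 1.44 and 1.74 RPKM in beta libraries. Reads for Fndc5 were few, 19 and 40 in transdifferentiated libraries.

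Izumo4, of the sperm IZUMO family, and Pla2g2d, a secreted phospholipase A2, lay just inside the threshold, as did Nfatc1. Izumo4 stood at 24.8 and 17.2 RPKM in transdifferentiated libraries, at 10.3, 6.03 and 11.1 RPKM in alpha libraries and at 8.00, 7.32 and 9.07 RPKM in beta libraries. Pla2g2d stood at 13.3 and 13.6 RPKM in transdifferentiated libraries, at 5.73, 6.91 and 8.73 RPKM in alpha libraries and at 3.63, 5.85 and 5.47 RPKM in beta libraries. Alpha replicate 3 was the highest alpha or beta library for both, which set their ratios of 1.55 and 1.52. Just outside the threshold, beside Rgs9, lay Ccdc163 at a ratio of 1.497 and Kif12 at 1.49. Ccdc163 stood at 7.02 and 6.41 RPKM in transdifferentiated libraries, at 2.98, 3.87 and 4.28 RPKM in alpha libraries and at 2.72, 3.39 and 3.29 RPKM in beta libraries. Kif12, a kinesin gene, stood at 110.1 and 105 RPKM in transdifferentiated libraries, at 47.2, 42.6 and 70.5 RPKM in alpha libraries and at 44.0, 70.5 and 61.9 RPKM in beta libraries.

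Enzymes made up 6 members. Gatm, which catalyses the first step of creatine synthesis, stood at 47.4 and 53.6 RPKM in transdifferentiated libraries, at 15.4, 15.6 and 21.96 RPKM in alpha libraries and at 14.8, 26.7 and 23.4 RPKM in beta libraries. Gamt, the second enzyme of that path, was at 0.556 RPKM or less in transdifferentiated libraries and at 0.582 RPKM or less in the others, and the creatine transporter gene Slc6a8 was at the beta level, with 12.5 and 12.9 RPKM in transdifferentiated libraries, 5.20 to 6.72 RPKM in alpha and 11.5 to 12.4 RPKM in beta libraries. Gatm alone of these 3 genes met the threshold of 1.5, and Slc6a8 had a ratio of 1.01. Aox1, a molybdenum-dependent aldehyde oxidase, stood at 8.41 and 7.59 RPKM in transdifferentiated libraries, at 1.67, 1.49985 and 1.87 RPKM in alpha libraries and at 3.46, 3.64 and 2.38 RPKM in beta libraries. Eno3, the muscle form of the glycolytic enzyme enolase, stood at 11.6 and 14.9 RPKM in transdifferentiated libraries, at 4.72, 5.10 and 5.91 RPKM in alpha libraries and at 3.70, 4.76 and 5.17 RPKM in beta libraries. The neuronal form Eno2 was at the beta level, with 31.9 and 32.7 RPKM in transdifferentiated libraries, 13.6 to 14.7 RPKM in alpha and 27.8 to 34.5 RPKM in beta libraries.

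The other 3 enzyme-related members fell outside the naming rule and rest on fewer reads. Cyp4f17, a cytochrome P450, stood at 10.9 and 13.9 RPKM in transdifferentiated libraries and at 4.43 to 6.37 RPKM in alpha and beta libraries. Fdxr, which passes electrons to mitochondrial P450 enzymes, stood at 5.73 and 5.92 RPKM, against 2.56 to 3.64 RPKM in alpha and beta libraries. Alox5ap, which presents arachidonic acid to 5-lipoxygenase, stood at 5.66 and 5.52 RPKM on 10 and 17 reads, against 1.35 to 3.44 RPKM in alpha and beta libraries. Alox5, the lipoxygenase gene itself, was listed at 0 in both transdifferentiated libraries and was at no more than 0.0544 RPKM elsewhere.

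Among regulators of transcription, Id2, which blocks DNA binding by basic helix-loop-helix factors, was the most abundant member. It stood at 162 and 135 RPKM in transdifferentiated libraries, at 85.0, 69.0 and 59.8 RPKM in alpha libraries and at 56.8, 54.5 and 48.5 RPKM in beta libraries. Every alpha library was above every beta library. Id1 and Id3, which act in the same way, did not exceed both alpha and beta cells: Id1 stood at 11.1 and 7.16 RPKM in transdifferentiated libraries, against 47.9 to 57.9 RPKM in alpha and 0.832 to 2.38 RPKM in beta libraries. Id3 stood at 53.4 and 40.7 RPKM in transdifferentiated libraries, against 47.8 to 76.6 RPKM in alpha and 4.98 to 6.76 RPKM in beta libraries.

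Nfatc1, a transcription factor switched on by calcineurin, was barely inside the selection at 5.30 and 5.09 RPKM in transdifferentiated libraries, with 3.02, 2.91 and 3.34 RPKM in alpha libraries and 2.51, 3.02 and 2.95 RPKM in beta libraries. Zkscan16, a zinc finger protein, stood at 12.1 and 9.74 RPKM in transdifferentiated libraries and at 4.41 to 5.79 RPKM in alpha and beta libraries. S100a6, a calcium-binding protein of the S100 family, stood at 19.99 and 22.6 RPKM in transdifferentiated libraries, at 0.566, 0.872 and 0.363 RPKM in alpha libraries and at 9.61, 8.204 and 9.85 RPKM in beta libraries. It was thus close to absent in alpha cells, on 7 to 16 reads a library. S100a16 had a larger ratio, 2.15, but stood below the floor of 5 RPKM, at 3.98 and 3.42 RPKM in transdifferentiated libraries and 0.630 to 1.59 RPKM in alpha and beta libraries. S100a1 and S100a11 lay between or at the levels of alpha and beta cells.

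**Figure D3:**
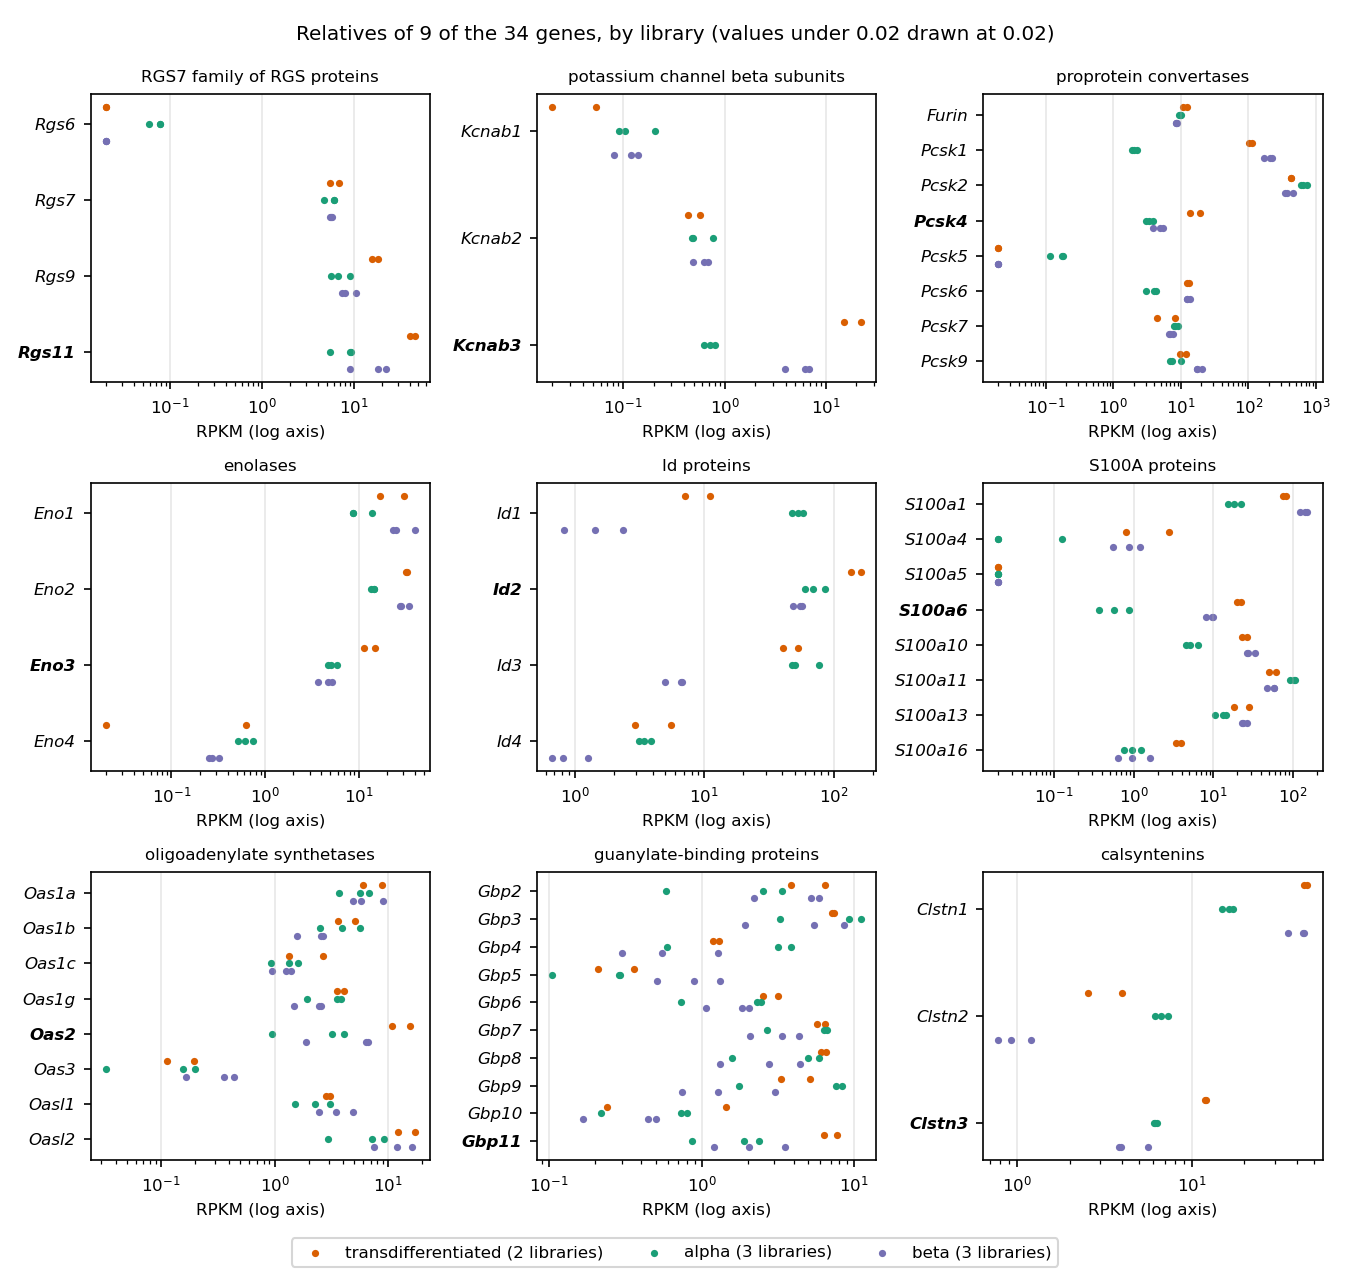
RPKM by library on log axes for 9 of the 34 genes (bold) and their relatives, which were picked after the members were known. Each point is 1 library (transdifferentiated orange, alpha green, beta violet; values under 0.02 drawn at 0.02); Rgs9 and S100a16 also stand right of alpha and beta cells, while relatives such as Id1, Id3, Pcsk1, Clstn1 and Eno2 do not.

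Interferon-inducible genes gave 2 members. Oas2, which makes the activator of RNase L, stood at 10.8 and 15.6 RPKM in transdifferentiated libraries and from 0.957 to 6.62 RPKM in alpha and beta libraries. Gbp11, of the guanylate-binding proteins, is annotated as a polymorphic pseudogene. It stood at 7.76 and 6.34 RPKM in transdifferentiated libraries and from 0.863 to 3.54 RPKM in alpha and beta libraries. In both genes alpha replicate 1 was the lowest alpha library and beta replicate 1 the lowest beta library. Other genes of the 2 families did not reach the threshold: Oasl2 stood at 12.1 and 17.1 RPKM in transdifferentiated libraries, against up to 16.3 RPKM in beta libraries, and Gbp8 at 6.53 and 6.03 RPKM, against up to 5.89 RPKM in alpha libraries. The guanylate-binding protein genes include near copies of one another, so their reads may have been split among them by the authors' counting.

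Cntrob, a centriole protein, stood at 15.1 and 10.8 RPKM in transdifferentiated libraries, at 2.88, 2.53 and 2.66 RPKM in alpha libraries and at 6.82, 5.20 and 5.87 RPKM in beta libraries. As in its neighbour Kcnab3, alpha cells were lowest in every library. Kifc2, a kinesin, stood at 6.90 and 6.46 RPKM in transdifferentiated libraries, against 1.98 to 3.45 RPKM in alpha and beta libraries, and Ankrd24, an ankyrin repeat protein, at 10.8 and 10.1 RPKM, against 4.75 to 6.21 RPKM. Tmem145, a membrane protein, stood at 5.28 and 6.06 RPKM in transdifferentiated libraries, at 1.95, 1.96 and 1.55 RPKM in alpha libraries and at 2.15, 1.59 and 2.06 RPKM in beta libraries. Only 18 and 36 reads stood behind its transdifferentiated values. Fam167a stood at 10.2 and 7.88 RPKM in transdifferentiated libraries, against 2.79 to 4.41 RPKM in alpha and beta libraries.

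Noncoding RNAs made up 4 members. 2410021H03Rik, annotated as an antisense RNA on chromosome 17, stood at 61.0 and 47.7 RPKM in transdifferentiated libraries, at 2.23, 2.53 and 3.34 RPKM in alpha libraries and at 17.0, 29.0 and 22.7 RPKM in beta libraries. The 3 groups were apart, and the lowest was alpha. A330023F24Rik, whose exons also hold Mir29b-2 and Mir29c, stood at 7.99 and 5.18 RPKM in transdifferentiated libraries, against 1.19 to 2.83 RPKM in alpha and beta libraries. Of its exon bases 16.1% are shared, also with Cd46 and Gm16897 on the opposite strand, whose reads the unstranded kit cannot tell apart. Hnf1aos1, an antisense RNA, stood at 7.04 and 6.73 RPKM on 12 and 20 reads, against 2.25 to 4.13 RPKM in alpha and beta libraries. Of its exon bases 31.8% overlap other genes, and the library kit did not mark strand, so reads of the partners cannot be told apart. Rmrp, the RNA of the RNase MRP complex, rested on 3 reads in each transdifferentiated library (8.90 and 5.11 RPKM), with 0 to 3.143 RPKM in alpha and beta libraries.

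Other features of the members were described as well. Protein-coding genes made up 29 of the 34 and the annotation gave 2 as antisense RNAs. Exon bases were shared with another gene in 6 members: Hnf1aos1, A330023F24Rik, Alox5ap, Kcnab3, Kifc2 and Rgs11, the last 3 by 5.13%, 4.15% and 3.28% of their length. The median GC content of the members was 53.7%, against 49.9% among the 7452 genes at 5 RPKM or more in both transdifferentiated libraries. Single members ran from 42.8% to 63.7%, within the 29.6% to 73.7% of those genes. Their median transcript length was 2615 bases, against 3299 bases in those genes. The chromosomes of the members varied, with 5 members on chromosome 10 and 4 each on chromosomes 4, 5 and 11. No share over all genes stands beside the counts of biotypes, shared exon bases and chromosomes, which describe the members only.

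Alpha and beta means lay within 2-fold of each other in 28 of the 34 genes (82.4%), a share between the 76.9% of all genes tested and the 86.2% of the 7452 genes at 5 RPKM or more in both transdifferentiated libraries. The higher mean was in alpha cells in 18 members (52.9%), against 46.9% of all genes tested and 35.8% of those 7452 genes. In limma, 9 of the 34 differed at an adjusted p under 0.05, 2 higher and 7 lower in alpha cells, against a background of 43.6% of the 13172 genes tested (16.9% higher and 26.7% lower). Among genes at 5 RPKM or more in both transdifferentiated libraries the background was 50.3%. The median log2 fold change of the members was 0.06, against -0.05 for all genes tested. The selection limits how high either cell type can stand, which bounds this comparison from above.

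**Figure D4:**
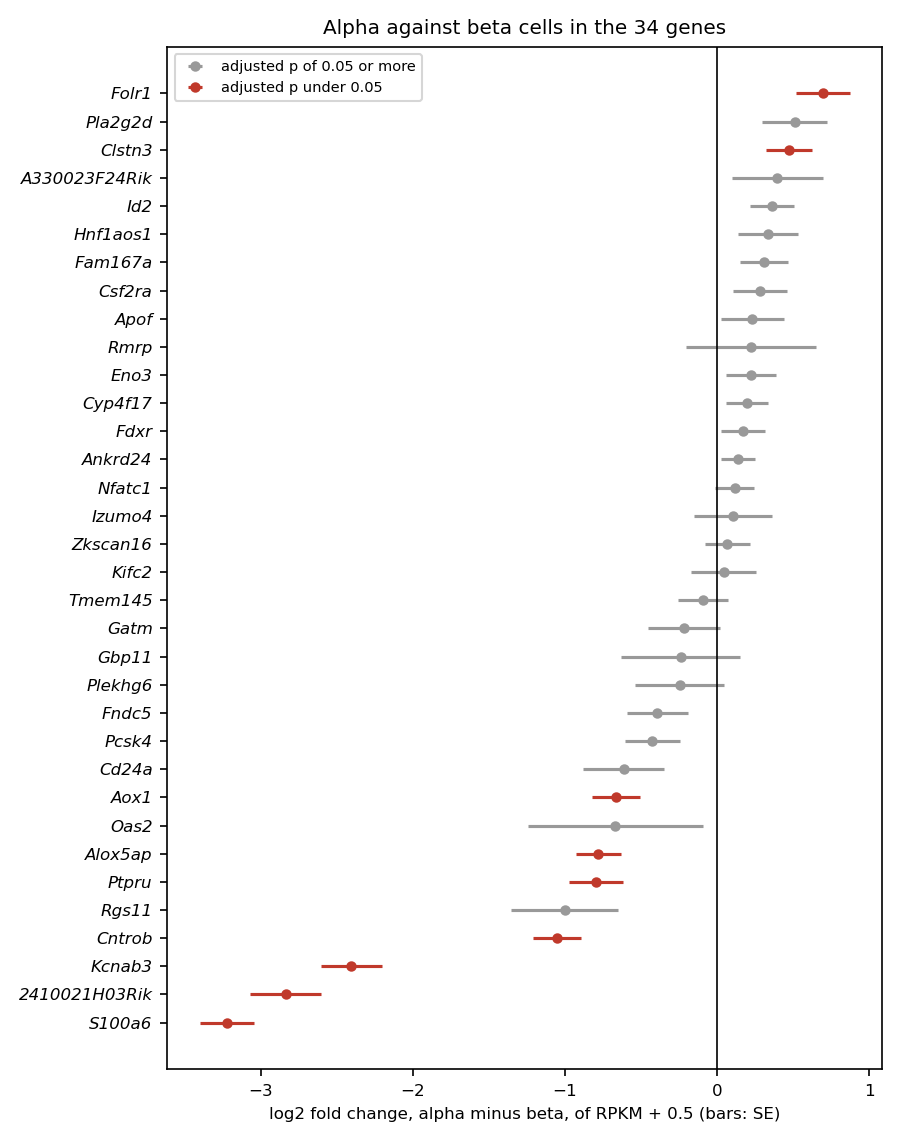
Log2 fold change (alpha minus beta, on RPKM + 0.5) of the 34 genes from limma, with bars of 1 standard error; red points passed an adjusted p of 0.05 and grey points did not. S100a6, 2410021H03Rik and Kcnab3 stand far to the left, lower in alpha cells, and Folr1 and Clstn3 are the red points to the right.

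The largest difference was that of S100a6, at 0.600 ± 0.256 RPKM in alpha cells and 9.22 ± 0.887 RPKM in beta cells (SD, n = 3 each; log2 fold change -3.22, SE 0.18, limma adjusted p = 2.15e-05). 2410021H03Rik (log2 fold change -2.84, SE 0.23, limma adjusted p = 0.000123) and Kcnab3 (-2.40, SE 0.20, limma adjusted p = 0.000134) came next. Smaller differences in the same direction were found for Cntrob (log2 fold change -1.05), Ptpru (-0.79), Alox5ap (-0.78) and Aox1 (-0.66). Higher in alpha cells were Folr1 (log2 fold change 0.69, SE 0.18, limma adjusted p = 0.0178) and Clstn3 (0.47, SE 0.15, limma adjusted p = 0.0399). The Clstn3 call was lost in 7 of 17 other settings, among them each of 5 fits without 1 alpha or beta library other than beta replicate 1.

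Plekhg6 and Apof gave log2 fold changes of -0.25 (SE 0.29, limma adjusted p = 0.519) and 0.23 (SE 0.21, limma adjusted p = 0.399), so no difference between alpha and beta cells was detected. Rgs11 lay close to the threshold, at 7.92 ± 2.15 RPKM in alpha cells and 16.3 ± 6.73 RPKM in beta cells (SD, n = 3 each; log2 fold change -1.003, SE 0.35, limma adjusted p = 0.0534). Leaving out beta replicate 1 moved it to -1.31 (limma adjusted p = 0.00977). Id2 missed it as well (log2 fold change 0.36, limma adjusted p = 0.0802). Without the adjustment, 13 of the 34 genes had a p under 0.05.

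Between the sexes no member passed the test. In limma 0 of the 34 passed, against a background of 0.0456% of genes tested, and voom on recovered reads also called 0. Rmrp was the only member with an unadjusted p under 0.05, at a log2 fold change of 1.62 (male minus female, limma adjusted p = 0.843), on 0 to 11 reads a library. Within the transdifferentiated group, where sex and replicate cannot be told apart, the male pool was higher in 23 members and the female pool in 11. Among the 7452 genes at 5 RPKM or more the male pool was higher in 53.0%, against 67.6% of the members. The 2 pools agreed within 1.5-fold in 31 members, the others being Plekhg6, Rmrp and A330023F24Rik.

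Markers of other cell types were read beside these genes. Calls here and in the next paragraph stand beside the shares of all genes tested. Those shares were 23.2% higher and 6.67% lower than in alpha cells, and 9.1% higher and 2.9% lower than in beta cells. Endothelial markers, 8 genes of blood vessel lining, summed to 11.3 and 4.90 RPKM in transdifferentiated libraries, against 0.747 to 3.91 RPKM in alpha and 2.11 to 3.49 RPKM in beta libraries, and 5 of the 8 stood above every alpha or beta library. Of 2 tested, Esm1 was higher than in alpha cells (log2 fold change 2.04, limma adjusted p = 0.0111), and none passed against beta cells. Mesenchymal markers summed to 4.08 and 2.14 RPKM in transdifferentiated libraries, 1.62 to 2.68 RPKM in alpha and 0.759 to 2.21 RPKM in beta libraries, and 3 of 8 stood above every alpha or beta library. The 1 tested, Sparc, was higher than in alpha cells (log2 fold change 1.39, limma adjusted p = 0.0288) and did not pass against beta cells. Cycling genes summed to 3.60 and 3.42 RPKM, against 0.900 to 1.40 RPKM in alpha and 1.30 to 1.84 RPKM in beta libraries; 3 of 8 stood above every alpha or beta library, and all 8 were too low to be tested. At this depth each of these sums rests on few reads. Under 1 RPKM in both transdifferentiated libraries stood 4 endothelial, 7 mesenchymal and 7 cycling markers. The counts of markers above every alpha or beta library stand without the share of all genes, so they describe these lists only. Immune markers summed to 38.2 and 22.5 RPKM in transdifferentiated libraries, against 10.8 to 29.8 RPKM in alpha and 105 to 122 RPKM in beta libraries: 2 of 9 tested were higher than in alpha cells and 8 were lower than in beta cells, with the lowest adjusted p for H2-Aa (log2 fold change -1.94, limma adjusted p = 0.00316) and the largest fold for Ctss (-3.36, limma adjusted p = 0.0191).

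Delta markers, genes of somatostatin cells, summed to 3120 and 2988 RPKM in transdifferentiated libraries, against 1389 to 3219 RPKM in alpha and 338 to 921 RPKM in beta libraries. Of the single markers, Ghsr was higher than in alpha cells and Rbp4, Ghsr and Sst were higher than in beta cells. PP and epsilon markers summed to 11439 and 8249 RPKM, against 7961 to 13025 RPKM in alpha and 590 to 1274 RPKM in beta libraries, and Ppy and Pyy were higher than in beta cells. Duct markers summed to 757 and 844 RPKM, against 1025 to 2135 RPKM in alpha and 690 to 908 RPKM in beta libraries; 5 of 11 tested were higher and 1 lower than in alpha cells, and 2 were higher and 1 lower than in beta cells. Tspan8, which met the values of the selection, is among the higher ones in both counts. Acinar markers summed to 1130 and 386 RPKM, within the 52.6 to 3198 RPKM of alpha and 144 to 4241 RPKM of beta libraries, and none of 13 tested passed. Schwann markers summed to 4.17 and 2.42 RPKM, against 3.82 to 4.23 RPKM in alpha and 1.91 to 2.39 RPKM in beta libraries, and neither of 2 tested passed. The part of any of these cells in the levels of the 34 genes was not tested, and in pooled libraries a change in the share of cells and a change in RNA per cell cannot be told apart.

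**Figure D5:**
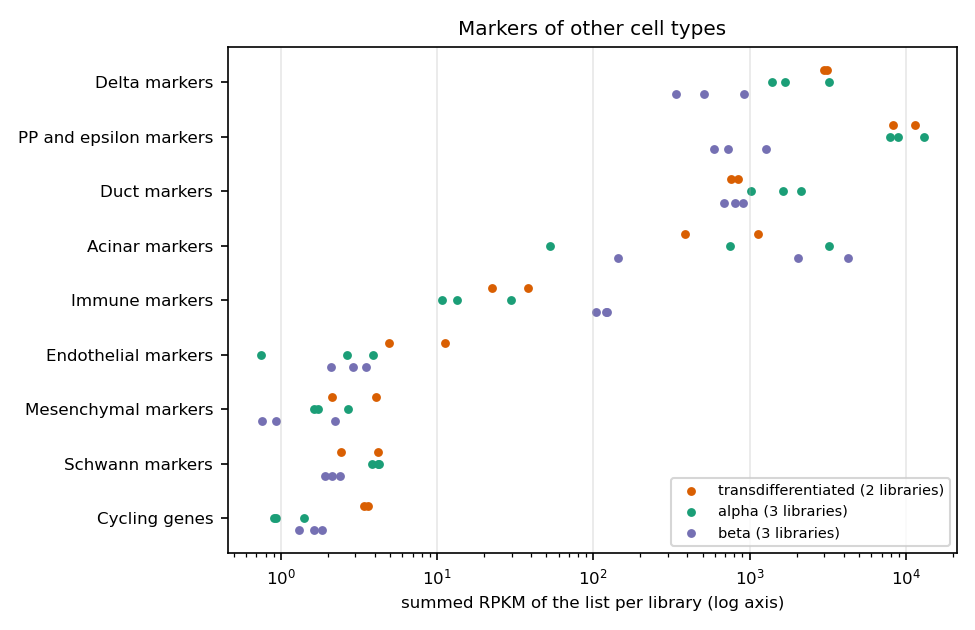
Summed RPKM of marker lists of other cell types in each library on a log axis (transdifferentiated orange, alpha green, beta violet). The endothelial, mesenchymal and cycling sums of the transdifferentiated libraries are at most 11.3 RPKM, and the immune sums lie between those of alpha and beta cells or within the alpha range.

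Neither transdifferentiated library carries the letter b in its title. The highest alpha or beta library was one with the letter in 25 of the 34 genes, most often alpha replicate 3 (11 genes) and beta replicate 2 (9 genes). Most of the alpha and beta libraries carry the letter. No share over all genes stands beside these counts of the highest library, so they describe the members only. Beta replicate 1 was the lowest beta library in 18 members (52.9%), against 33.2% of the 7452 genes, and alpha replicate 1 the lowest alpha library in 13 (38.2%), against 51.8%. The part of the letter in the excess of the 34 genes was not tested.

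Lists of other genes, with no member among them, were set beside the selection, as counts against alpha and against beta cells. For all genes tested the shares were 23.2% higher and 6.67% lower than in alpha cells. Against beta cells they were 9.1% higher and 2.9% lower. The counts describe the lists, with no test of a list as a whole. Of 8 endocrine progenitor genes, 3 were higher and 2 lower than in alpha cells, and 2 were higher than in beta cells. Of 14 glucose response genes, 6 were higher and 3 lower than in alpha cells, and 3 were higher and 2 lower than in beta cells. The higher ones include Mlxipl in both counts, a gene that met the values of the selection and was left out by name. Of 17 tetraspanin genes, 5 were higher and 1 lower than in alpha cells, and 3 were higher and 2 lower than in beta cells, a list whose higher genes include Tspan8 in both counts, left out of the members by name as well. Of 11 enteroendocrine genes, 4 were higher and 4 lower than in alpha cells, and 3 were higher and 1 lower than in beta cells. Among 15 cholesterol synthesis genes, 1 was higher and 4 lower than in alpha cells, and 2 were lower than in beta cells. Among 23 genes of RNA processing and splicing, 1 was higher than in alpha cells and 8 than in beta cells. Among 11 immediate early genes, 1 was higher and 1 lower than in alpha cells, and 1 was higher than in beta cells. None of 19 zinc finger repressor genes passed either comparison.

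The selection depended on how the libraries were scaled. With median-ratio scaling 14 of the 34 genes remained, and with quantile normalization 15. The 14 genes kept under both were Plekhg6, Apof, Pcsk4, Kcnab3, Aox1, S100a6, Eno3, Clstn3, Kifc2, Rgs11, Gbp11, Fam167a, Gatm and 2410021H03Rik, and Cd24a was kept under quantile normalization only. The median log2 fold change of all genes tested moved with the scaling, being 0.17 against alpha and 0.09 against beta cells as deposited, -0.05 and -0.07 with median-ratio scaling, and -0.05 and -0.04 with quantile normalization. Plekhg6 was the only gene to keep a ratio of at least 3 as deposited, and 8 genes reached a ratio of 2: Plekhg6, Apof, Pcsk4, Tmem145, Fndc5, Kcnab3, Aox1 and S100a6.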

How the data were processed

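RNA of sorted islet cells was sequenced in 8 libraries made with the unstranded TruSeq RNA kit v2, per the labels' protocols. The authors deposited RPKM per gene and library. STAR 2.5, featureCounts, edgeR 3.14.0 and the build GRCm38.p4 were used, per the submitters' processing notes; no source used here gives the annotation or strand setting. Of 46959 entries, 4 with repeated names were left out, and 27 bore names turned into dates.

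The steps of the deposited RPKM values were turned back into reads with exon lengths of GENCODE M21: 78.5% of 25353 genes matched by symbol came out whole within 0.01 of a read in every library, and lengths of 6874 genes were solved from their steps. Reads were recovered for 26785 genes, including all 34 members (25 with annotated lengths).

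Members were taken by the stated rule. Members and gene lists were chosen with earlier results of these data known, and the relatives of members were picked after the members were known and carry no test. Genes named with all values are Plekhg6 and Apof, the 10 with the highest ratio, the 10 with the highest mean in transdifferentiated cells, the 5 with the largest alpha to beta change each way among those called, and the 3 on either side of the threshold; other members were given by range, after their values were seen. The RFX promoter motif was shortened after a first search with a longer form found no match in the members. Some genes of the lists are not reported here.

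limma 3.58.1 (lmFit, eBayes with a trend) in R 4.3.3 was fitted to log2(RPKM + 0.5) of all 8 libraries with terms for group and sex, over 13172 genes with at least 1 RPKM in at least 2 libraries, and Benjamini-Hochberg adjustment over all genes (threshold 0.05). Fold changes on this scale understate changes of low genes. A further fit tested whether the alpha to beta difference differed between sexes. The fit was tested on simulated data. Alternatives were other pseudocounts, filters, scalings and terms, limma voom on recovered reads, other limits of the rule, and leaving out each library.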

Additional observations from a re-analysis of the deposited data

How the results depend on the processing

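The number of genes selected, 34, was sensitive to each limit of the rule. It was 138 with the lower transdifferentiated library at 125% of the highest alpha or beta library, 8 at a ratio of 2 and 1 at a ratio of 3. It was 77 with a floor of 2 RPKM and 20 with a floor of 10 RPKM. It was 14 with median-ratio scaling, 15 with quantile normalization and 89 against the higher of the 2 group means. Leaving out 1 library gave 34 to 213 genes: 213 without transdifferentiated replicate 2, 122 without transdifferentiated replicate 1, and 51 without alpha replicate 3 or without beta replicate 3.

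Of the members, 9 differed between alpha and beta cells in limma and 14 did with the letter b as a term; leaving out 1 library gave 6 (without alpha replicate 3) to 11. In all settings that could test them (up to 17), 21 of the 34 genes kept their side of the threshold, including 5 of the 9 called: S100a6, 2410021H03Rik, Kcnab3, Cntrob and Alox5ap. No member changed direction while called. Aox1 and Ptpru lost their call without alpha replicate 3 and Folr1 without beta replicate 3. No member was called between the sexes in any setting. In the gene lists, 46 genes differed between transdifferentiated and beta cells, 24 without a filter on low values and 33 with voom, and 13 to 44 with 1 library left out (13 without beta replicate 3, 19 without beta replicate 1, 27 without transdifferentiated replicate 1). Against alpha cells 52 differed, 35 with voom, and 34 (without alpha replicate 3) to 52 with 1 library left out. The cause of these changes was not tested. No paired analysis was possible because the labels give the groups no shared replicate numbers.

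The depth of the transdifferentiated libraries limits these results: 10 members rest on fewer than 50 reads in both, and 4 members had a lower counting bound under the highest alpha or beta value. Only 7 members had lower counting bounds above 1.5 times that value in both libraries.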

Other observations

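An interaction term in limma asked whether alpha and beta cells differed by another amount in males than in females. Of the 34 genes, 0 passed and 1 had an unadjusted p under 0.05: Apof, at a difference of -0.84 on the log2 scale (limma adjusted p = 0.999). Over all genes tested, 0 passed as well.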
